A study of Mus musculus with 4 samples.

Results

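E2F1 occupancy was described here at the promoters of 58 genes for chromatin modifiers and for the DNA methylation machinery of mouse embryonic stem cells (ESCs). A peak was assigned to a gene when it overlapped the window from 1000 bp upstream to 500 bp downstream of any annotated transcript start of that gene. By this rule 37 of the 58 genes had an E2F1 peak. They held 41 of the 4090 promoter peaks and of the 4523 peaks in all, because Bmi1, Kdm2a, Kdm2b and Rbbp7 had 2 peaks each. ChIP-seq sequences the DNA that an antibody, here against E2F1, pulls down from fixed chromatin. The data comprise 2 replicates of serum ESCs, kept in serum medium with LIF, and 2 replicates of 2i ESCs, kept with LIF and the inhibitors PD0325901 (of MEK) and CHIR99021 (of GSK3). The cells of either group had been kept in their medium for over 20 days, they carry no engineered allele that the labels mention, and the labels do not name the ESC line. The comparison asks whether E2F1 sits on these promoters to a different extent in the 2 media.

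E2F1 is a transcription factor that activates genes needed for entry into S-phase and is held in check by RB family proteins. Chromatin is copied together with DNA, so the enzymes that write, read and erase marks on histones and on cytosines are needed again in each S-phase. Polycomb repressive complexes methylate histone H3 at K27 (PRC2) and ubiquitinate histone H2A (PRC1), whereas de novo DNA methyltransferases and the maintenance enzyme place methyl groups on CpG. ESCs in 2i are known for a hypomethylated genome compared with serum ESCs.

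The signal is a normalized count, the reads over a peak divided by 1 size factor per sample. The numbers of reads given here are not direct counts but were inferred from the step in each sample of which its values are whole multiples. By this, reads in peaks ranged from 248878 in serum replicate 1 to 710519 in 2i replicate 1. At the median peak of these promoters lay 70 and 113 reads in the serum replicates and 158 and 101 in the 2i replicates, in order of their numbers, and the fewest reads behind any value were 11. Between replicates, the median absolute difference on the log2 scale at these peaks was 0.31 in serum and 0.38 in 2i, next to 0.34 and 0.32 at the other promoter peaks. The study methods call the replicates biological, and no source used here says more of how they were kept apart.

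E2F1 peaks were found in most role groups of the list, with the Polycomb complexes at one end and the histone chaperones at the other. All 7 PRC1 genes had a peak, as did 5 of the 6 PRC2 genes, 4 of the 5 histone demethylases, 7 of the 9 ATP-dependent remodellers and 4 of the 5 genes for acetyltransferases, the bromodomain protein Brd2 and the H3K79 methyltransferase Dot1l. Peaks were fewer at the H3K9 group (4 of 8), where all 4 belonged to methyltransferases and no peak of the table overlapped a promoter of the HP1 genes Cbx1, Cbx3 or Cbx5. Of the DNA methyltransferases and their cofactors 3 of 6 had a peak, of the demethylation and base repair genes 1 of 3, of the methyl-CpG binding proteins 1 of 3, and of the deacetylases and the corepressor Sin3a 1 of 4. Neither histone chaperone, Asf1b or Nasp, had one. In all, 63.8% of the listed genes had a promoter peak, against 18.9% of the other 22180 protein-coding genes. A wider list of 159 further chromatin genes had promoter peaks at 90 (56.6%), so the share was high in this list too. Both lists were chosen with earlier results of these data known, and the other protein-coding genes were not filtered for expression.

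The 21 genes without a promoter peak include the maintenance enzyme Dnmt1, its partner Uhrf1 and the cofactor Dnmt3l. The peak closest to the 1 annotated Dnmt1 start was 285648 bp away, and for Dnmt3l the distance was 189058 bp. Uhrf1 had a peak 7930 bp away, at a start of Kdm4b. Tet3, which oxidizes methylcytosine, had a peak 14340 bp from its nearest start that was at no annotated promoter and had a mean of 139.8 over the 4 samples. The deacetylase gene Hdac1 was the closest to a peak, at 3274 bp, and this peak lay at the Marcksl1 promoter with a mean of 466. For Rbbp4, which encodes the histone-binding partner of PRC2 alongside Rbbp7, the distance was 41812 bp. Because a peak had to be found in the replicates of a condition to enter the table, a weaker site at these genes would not be listed.

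Sequence around the peak centres was compared in windows of 300 bp. The E2F 8-mer, TTTCCCGC, TTTCGCGC, TTTGCCGC or TTTGGCGC on either strand, was in the window of 7 of the 41 peaks (17.1%) and of 140 of the other 4049 promoter peaks (3.46%). In the wider list of chromatin genes it was in 5 of 98 windows (5.10%), nearer to the other promoters than to the 41. The last 7 letters of these alone, which every 8-mer contains, were in 15 (36.6%) against 940 (23.2%). An ETS motif (CCGGAAGT, either strand) was in 0 windows, against 123 (3.04%) of the others. A CCAAT box (CCAAT, either strand) was in 3 windows (7.32%) against 510 (12.6%). The short core GCGC, which overlaps some of the E2F letters, was in all 41 windows and in 98.7% of the others, with a median of 7 copies in either set. GC content was likewise alike, with a median of 76.3% in these windows and 76.7% in the others, and the ratio of observed to expected CpG was 1.01 and 0.989. Over whole peaks, an E2F 8-mer was present in 8 peaks, those of Arid1a, Atrx, Brd2, Eed, Ezh2, Hells, Suv39h1 and Suz12.

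The sites in the 300 bp windows are shown because they hold the E2F letters and so let the matches be read in their context. Each line gives 30 bases of mm9, read 5′ to 3′ on the stated strand, with the 8-mer in capitals. The site at Kdm2a crosses the edge of its peak.
Ezh2, chr6:47545008-47545037, minus strand: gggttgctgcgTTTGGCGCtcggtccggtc
Eed, chr7:97129285-97129314, plus strand: gggcgggcggtTTTCCCGCcgccctctcga
Suv39h1, chrX:7651340-7651369, plus strand: gagagccgcctTTTCCCGCgcgtggccgca
Suv39h1, chrX:7651533-7651562, plus strand: cggcccccacgTTTGCCGCgccggccttcc
Kdm2a, chr19:4396579-4396608, minus strand: agaggagggtgTTTCCCGCggcccggttga
Hells, chr19:39005407-39005436, plus strand: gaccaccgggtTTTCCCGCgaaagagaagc
Atrx, chrX:103124135-103124164, minus strand: cgcgcgttgccTTTCCCGCctcccgccgct
Brd2, chr17:34256254-34256283, minus strand: cggcggcgccaTTTCGCGCtggagtggagc

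These 8 sites used TTTCCCGC at 5 places and each of the other 3 spellings once. The 7 peaks with a site in the window had a median signal of 67.8, below the 110.0 of the 34 peaks without one. At the other promoter peaks the medians were 66.1 with and 65.1 without a site, nearly equal. The order among the 41 rests on the choice of window. Arid1a (mean 505) and Suz12 (154) have an 8-mer elsewhere in the peak and are counted without one. Kdm2a peak a (24.4) is counted with one, though its site crosses the peak edge. Medians by sites in whole peaks were not compared. A match is a description of the letters and was not tested as a binding site.

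E2F1 signal at these promoters was higher than at promoters in general. The median peak had a mean normalized count of 107 over the 4 samples, against 65.1 at the other promoter peaks, and the middle of the distribution lay between 66.7 and 158 (quartiles), against 38.0 and 113. Above the median of the other promoter peaks were 32 of the 41 peaks, 19 were above their upper quartile and 4 below their lower quartile. The peaks were also somewhat wider, with a median of 530 bp against 486 bp. Per kb of peak the medians were 175 and 128, and 31 of the 41 peaks were above the latter. Among peaks of 472 to 679 bp, which hold the middle 21 of these peaks by width, the median signal was 117 at these promoters and 88.2 at 1557 other promoter peaks. The wider list of chromatin genes had a median of 113 over 98 peaks, close to that of the 41. No test was run on the list, because the genes were not chosen blind to these data.

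**Figure D1:**
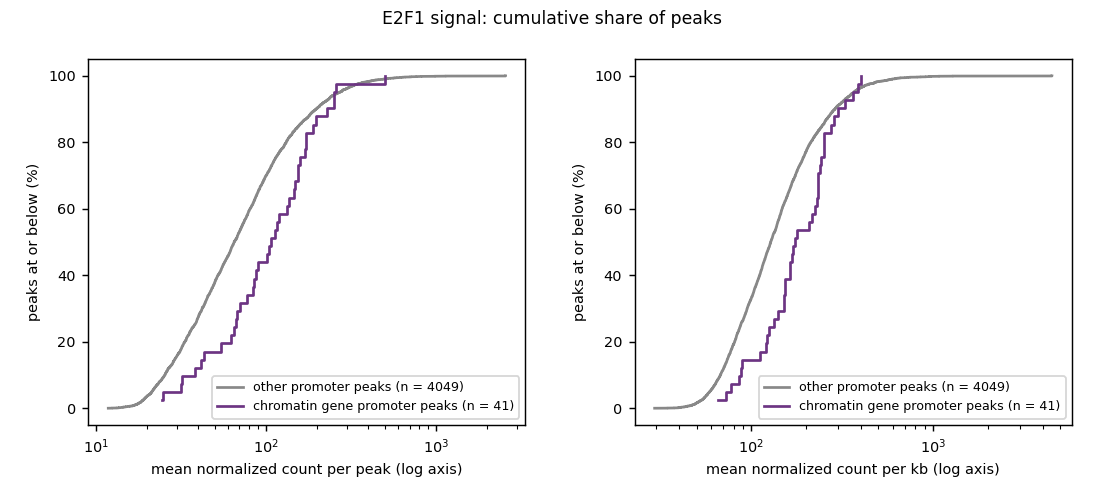
Cumulative share of peaks (%) at or below a given mean normalized count per peak (left) or per kb of peak (right), both on log axes, for the 41 chromatin gene promoter peaks and the 4049 other promoter peaks. The curve of the chromatin genes lies to the right over most of its range, with medians of 107 against 65.1 per peak and 175 against 128 per kb.

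The estimated change between media was below 2-fold at 37 of the 41 peaks. Changes just under that size went both ways, with 0.97 on the log2 scale at Arid1a and -0.90 at Bmi1 peak b. Of the 41 peaks, 4 were called differential at over 2-fold and an unadjusted p under 0.05 (limma on log2(normalized count + 1), serum minus 2i), and all 4 were higher in serum ESCs. They are at Dnmt3b, Suv39h2, Cbx7 and Kdm2a. The same rule called 10.3% of all 4523 peaks, with 4.82% toward serum and 5.48% toward 2i, and it called 9.48% of the other promoter peaks, so a share of 9.76% of the 41 is near the background. With a pseudocount of 8, or with each sample scaled to the same total, Dnmt3b was the 1 peak called, and with a sample left out 2 to 5 peaks were called, which included both Bmi1 peaks, higher in 2i, when serum replicate 2 or 2i replicate 1 was left out. None of the 41 passed the Benjamini-Hochberg adjusted p of limma over all peaks (1.46% of all peaks did so at over 2-fold), whereas 9 had an unadjusted p under 0.05 (17.8% of all peaks). With 2 samples against 2 the smallest two-sided p of an exact permutation test is 0.333, and a call therefore relies on the variance that limma borrows from the whole table.

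The median log2 fold change was 0.14 at these peaks and -0.05 at the other promoter peaks, with quartiles of -0.22 to 0.45 and of -0.41 to 0.30. It was above 0 at 25 peaks and below at 16 (61.0% above, against 46.4% of the other promoter peaks). In the per-sample values, the replicates of serum all lay above those of 2i at 15 peaks (36.6%, against 24.9% of all peaks) and those of 2i above those of serum at 8 peaks (19.5%, against 24.4%), and they overlapped at 18. Without serum replicate 1 the median of the 41 was -0.0031, so its direction depends on that sample, the shallowest. After cyclic loess normalization it was 0.053, against -0.0476 at the other promoter peaks. Between replicates, the median log2 signal of the 41 had a standard deviation of 0.153, larger than the 0.14. Signal changed by less than 0.3 on the log2 scale at 22 peaks, and at 18 the 95% interval of the fold change lay within 2-fold either way.

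**Figure D2:**
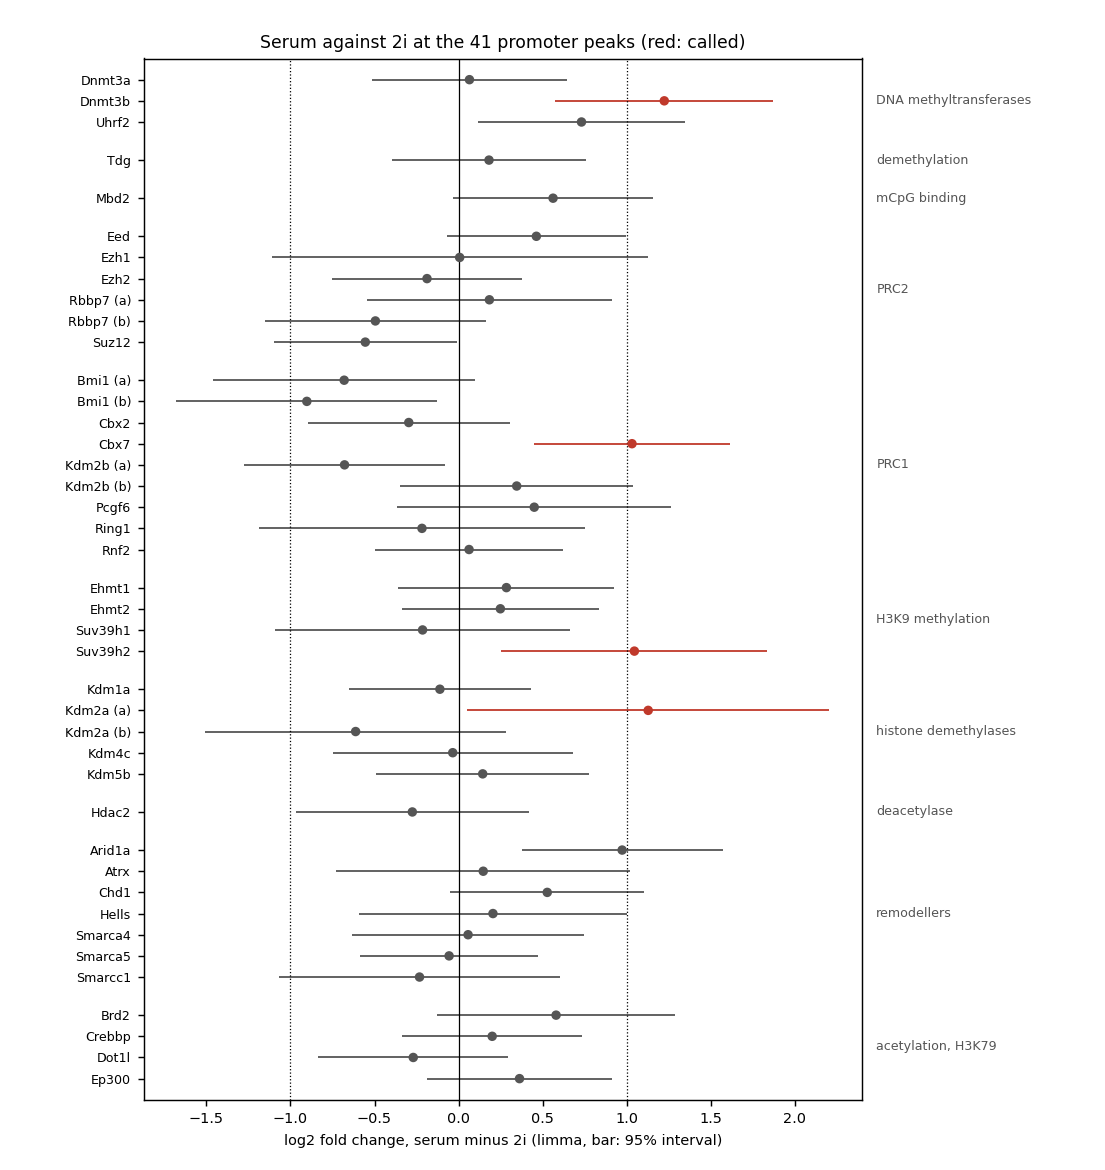
Log2 fold change of E2F1 signal, serum minus 2i, at each of the 41 promoter peaks, grouped by role, with its 95% interval from limma as a bar and dotted lines at 2-fold. Called peaks are red, and they are Dnmt3b (1.22), Kdm2a peak a (1.13), Suv39h2 (1.05) and Cbx7 (1.03), while the lowest value is that of Bmi1 peak b (-0.90).

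Among the DNA methyltransferases, the E2F1 peak of Dnmt3b was higher in serum ESCs and that of Dnmt3a had overlapping values in the 2 media. Dnmt3b, a de novo DNA methyltransferase (ENSMUSG00000027478.9, peak at chr2:153474955-153475546 of mm9, plus strand, centre in a UTR), had normalized counts of 169 (replicate 1) and 249 (replicate 2) in serum and of 72.2 and 105 in 2i, the order used for all genes. The serum samples were both above the 2i samples. The log2 fold change was 1.22 (standard error 0.30, limma adjusted p = 0.0758), the largest of the 41. It was 0.95 without serum replicate 2 and also 0.95 without 2i replicate 1, under the 2-fold threshold. The promoter is shared with the start of 7530422B04Rik on the other strand.

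Dnmt3a, the other de novo enzyme, had values of 155 and 141 in serum and 165 and 121 in 2i, at chr12:3806867-3808034. These overlap, and the log2 fold change was 0.06 (95% interval -0.51 to 0.64). The 95% interval of Dnmt3b, 0.57 to 1.87, overlaps that of Dnmt3a at its lower end. The difference between the 2 genes was not tested. Uhrf2, a relative of Uhrf1 that binds modified cytosines, had 125 and 99.1 in serum and 63.8 and 69.9 in 2i. Its serum samples were both higher, with a log2 fold change of 0.73 (limma adjusted p = 0.210), below 2-fold. Of the 3 peaks of this role group 1 was called, and the sign at Dnmt3a turned after rescaling to the same total, after cyclic loess normalization and without serum replicate 1 or 2i replicate 2.

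Tdg, the glycosylase that removes oxidized or deaminated bases opposite guanine, had 131 and 117 in serum and 123 and 97.01 in 2i. Its groups overlapped and the log2 fold change was 0.18. For Mbd2, a reader of methylated CpG, the values were 122 and 133 in serum and 75.6 and 98.1 in 2i. Both serum samples lay above the 2i samples, with a log2 fold change of 0.56 (95% interval -0.03 to 1.16) that did not reach the threshold.

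The stretch of the Dnmt3b peak just before the gene start is shown with that of Cbx7, described next, since these were the called peaks with the lowest p. Both are mm9, on the strand of the gene, outside annotated exons, with GCGC in capitals. No E2F 8-mer was found in either stretch.
Dnmt3b, chr2:153475036-153475185, plus strand: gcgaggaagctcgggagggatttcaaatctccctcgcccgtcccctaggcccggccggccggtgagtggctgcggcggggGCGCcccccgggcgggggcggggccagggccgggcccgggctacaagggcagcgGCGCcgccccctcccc
Cbx7, chr15:79763083-79763232, minus strand: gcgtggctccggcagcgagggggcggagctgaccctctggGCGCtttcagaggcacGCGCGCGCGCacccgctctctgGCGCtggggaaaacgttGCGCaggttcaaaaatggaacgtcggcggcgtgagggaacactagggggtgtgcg

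The Dnmt3b stretch ends 5 bases before the start used here and holds 2 copies of GCGC, the Cbx7 stretch ends 14 bases before it and holds 7. Since GCGC is in 98.7% of the other promoter windows, its presence does not single out these 2 promoters.

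At the PRC2 genes Ezh2, Eed and Suz12 the mean signal, from 154 to 196, was above the 65.1 of the median other promoter peak, whereas Ezh1 (24.8) and peak a of Rbbp7 (54.6) were below it, and no PRC2 peak was called. Ezh2, the main H3K27 methyltransferase of ESCs, had 162 and 205 in serum and 232 and 186 in 2i, at chr6:47544648-47545153. Serum replicate 2 was between the 2i samples, and the log2 fold change was -0.19 (95% interval -0.76 to 0.38). Ezh1, the alternative catalytic subunit, was among the weakest peaks, with 19.2 and 29.5 in serum and 16.2 and 34.4 in 2i.

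The Ezh1 replicates differed more within a medium than the media did, and its log2 fold change of 0.01 has a 95% interval of -1.11 to 1.12, which does not leave out a change of 2-fold in either direction. Eed, which binds methylated H3K27, had 206 and 194 in serum and 151 and 139 in 2i, at chr7:97128897-97129423. All its serum values were higher, with a log2 fold change of 0.46 (95% interval -0.07 to 0.99). Suz12, the scaffold of the complex, had 129 and 120.1 in serum and 199 and 169 in 2i, at chr11:79806430-79807148. Suz12 thus stood on the other side of Eed, with both 2i samples higher and a log2 fold change of -0.55 (95% interval -1.10 to -0.01, limma adjusted p = 0.270), and it was not called. Rbbp7, the histone-binding subunit shared by PRC2 and deacetylase complexes, had 2 peaks with log2 fold changes of 0.18 and -0.49, neither of them called.

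PRC1 genes spread the most, from a called peak higher in serum at Cbx7 to the lowest log2 fold changes of the 41 at Bmi1 and Kdm2b. Cbx7, the chromodomain subunit that reads H3K27 methylation (ENSMUSG00000053411.9, peak at chr15:79762788-79763263, minus strand), had 166 and 138 in serum and 77.3 and 69.9 in 2i. The 4 samples fall into clearly separate pairs, and the log2 fold change was 1.03 (standard error 0.26, limma adjusted p = 0.0876). It was 0.90 without serum replicate 1 and 0.96 without 2i replicate 2, and it was likewise just below 2-fold with a pseudocount of 8, after rescaling to the same total and after cyclic loess normalization. Cbx2, another chromodomain subunit, had its 2i samples higher, with a log2 fold change of -0.30.

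Bmi1, a PCGF subunit of canonical PRC1, had 2 peaks on chromosome 2 separated by 243 bp. Peak a (chr2:18597901-18598477, upstream of the start) had 99.3 and 160.1 in serum and 142 and 289 in 2i, and peak b (chr2:18598720-18599318) had 45.3 and 70.5 in serum and 80.6 and 141 in 2i. In both peaks replicate 2 was the higher sample of each medium, and the groups overlapped in peak a but not in peak b. The log2 fold changes were -0.68 for peak a and -0.90 for peak b (limma adjusted p = 0.216). Leaving out serum replicate 2 gave -1.02 and -1.22 and leaving out 2i replicate 1 gave -1.19 and -1.30, all past the threshold, whereas leaving out 2i replicate 2 gave -0.17 and -0.50 and leaving out serum replicate 1 gave -0.34 and -0.59. How far Bmi1 differed between media therefore depends on the replicate.

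Kdm2b, which brings variant PRC1 to CpG islands, had 2 peaks at different starts, with 114306 bp between them, peak a at chr5:123349725-123350661 and peak b at chr5:123464967-123465459. Peak a had 80.1 in each serum sample and 112 and 148 in 2i, a log2 fold change of -0.68 (limma adjusted p = 0.228). Peak b, shared with the start of Orai1, had 81.9 and 64.8 in serum and 63.8 and 51.1 in 2i, a log2 fold change of 0.35. The catalytic subunits Rnf2 and Ring1, which ubiquitinate H2A, had log2 fold changes of 0.06 and -0.22 with overlapping groups, and Pcgf6, of variant PRC1, had 0.45 with both serum samples higher. Of the 9 PRC1 peaks 1 was called, and 4 were above 0 and 5 below.

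The H3K9 methyltransferases included the called peak of Suv39h2, whose replicates were close in serum and apart in 2i. Suv39h2, which trimethylates H3K9 (ENSMUSG00000026646.10, peak at chr2:3391891-3392367, minus strand, centre in the CDS), had 97.6 and 108 in serum and 69.98 and 34.4 in 2i. Both serum samples were higher, but the 2i samples differed by over 2-fold. The log2 fold change was 1.05 (standard error 0.36, limma adjusted p = 0.166), 0.54 without 2i replicate 2 and 0.98 without serum replicate 2. It was also below 2-fold with a pseudocount of 8 (0.94) and after rescaling to the same total (0.96). Its partner enzyme Suv39h1 had 172 and 62.9 in serum and 115 and 127 in 2i. Suv39h1 was the 1 peak of the 41 at which the serum replicates differed by over 2-fold, and its log2 fold change was -0.21. Ehmt1 and Ehmt2, which form the G9a/GLP enzyme, had means of 169.9 and 229 and log2 fold changes of 0.28 and 0.25 with overlapping groups.

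The histone demethylases held the weakest of the called peaks, that of Kdm2a, and 1 of the 4 peaks with the highest means, that of Kdm5b, with a median mean of 66.7 over their 5 peaks. Kdm2a, an H3K36 demethylase that binds unmethylated CpG islands (ENSMUSG00000054611.8), had 2 peaks 323 bp apart on either side of a start on the minus strand of chromosome 19. Peak a (chr19:4396592-4396871, downstream of the start, the peak whose edge the E2F site above crosses) had 43.6 and 24.8 in serum and 16.8 and 12.5 in 2i. These values rest on an inferred 12 to 30 reads, and the log2 fold change was 1.13 (standard error 0.49, limma adjusted p = 0.260). It was 0.73 without serum replicate 1 and 0.93 without 2i replicate 2, 1.33 but with p over 0.05 without 2i replicate 1, and 0.87 with a pseudocount of 8. Peak b (chr19:4397194-4397563, upstream) went the other way, with 27.9 and 21.9 in serum, 38.1 and 38.6 in 2i and a log2 fold change of -0.61 (limma adjusted p = 0.461).

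Kdm5b, an H3K4 demethylase, had 338 and 201 in serum and 223 and 249 in 2i. Its serum replicates enclosed the 2i samples, and the log2 fold change was 0.14. Kdm1a, which demethylates H3K4 as part of corepressor complexes, was among the most even of the peaks, with a log2 fold change of -0.11 (95% interval -0.65 to 0.43). Kdm4c, an H3K9 demethylase, had -0.03, and Hdac2, the only deacetylase of the list with a peak, had -0.28, both with overlapping groups.

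Among the remodellers, Arid1a had the strongest peak of all 41 and lay just outside the call. Arid1a, the DNA-binding subunit of BAF complexes (ENSMUSG00000007880.9, peak at chr4:133308944-133310345, minus strand, 1401 bp wide), had 732 and 608 in serum and 310.2 and 371 in 2i. Its mean of 505 ranked 41st of all 4523 peaks, above 99.1% of the other promoter peaks. The serum samples were both far above the 2i samples, with a log2 fold change of 0.97 (standard error 0.27, limma adjusted p = 0.105), short of the threshold of 1. Without serum replicate 2 it was 1.11 and without 2i replicate 2 it was 1.102, past the threshold in both, whereas without serum replicate 1 or 2i replicate 1 it was 0.84. It was 0.88 after rescaling to the same total and 0.63 after cyclic loess normalization. The next largest values above 0 after the 4 called peaks and Arid1a were those of Uhrf2, Brd2, Mbd2 and Chd1. The stretch below lies 372 bases before the start nearest the peak centre, outside annotated exons, and is shown for its E2F 8-mer, which the 300 bp window at the peak centre does not reach. Capitals mark GCGC and the 8-mer TTTCCCGC.
Arid1a, chr4:133309898-133310047, minus strand: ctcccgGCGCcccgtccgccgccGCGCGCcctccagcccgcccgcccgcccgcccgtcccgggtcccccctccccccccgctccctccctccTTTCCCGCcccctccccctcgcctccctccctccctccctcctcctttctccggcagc

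Smarca5, the ISWI ATPase, had a mean of 251 and the most even values of the 4 peaks with the highest means, with 240.4 and 253 in serum and 258 and 255 in 2i. The log2 fold change was -0.06 (95% interval -0.58 to 0.47). Chd1, a remodeller that binds methylated H3K4, had a log2 fold change of 0.53 with both serum samples higher. Hells, which helps DNA methyltransferases reach heterochromatin, and Smarca4, the ATPase of BAF, had 0.20 and 0.06 with overlapping groups. The weak peak of Atrx (mean 32.0), which deposits histone H3.3 at heterochromatin, had 0.15, and that of Smarcc1, a BAF core subunit, had -0.23. Of the 7 remodeller peaks none was called by limma, and 1, that of Arid1a, had an unadjusted p under 0.05.

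The acetyltransferase genes Crebbp and Ep300 had strong peaks with serum slightly higher. Crebbp had 274 and 279 in serum and 225 and 258 in 2i, the second highest mean of the 41 (259). Its log2 fold change was 0.20 (95% interval -0.34 to 0.74), and that of Ep300 was 0.36, in both cases with the serum samples above the 2i samples. Brd2, a reader of acetylated histones, had 0.58 with its serum samples also higher (limma adjusted p = 0.367). Dot1l, the H3K79 methyltransferase, had -0.27 with overlapping groups.

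**Figure D3:**
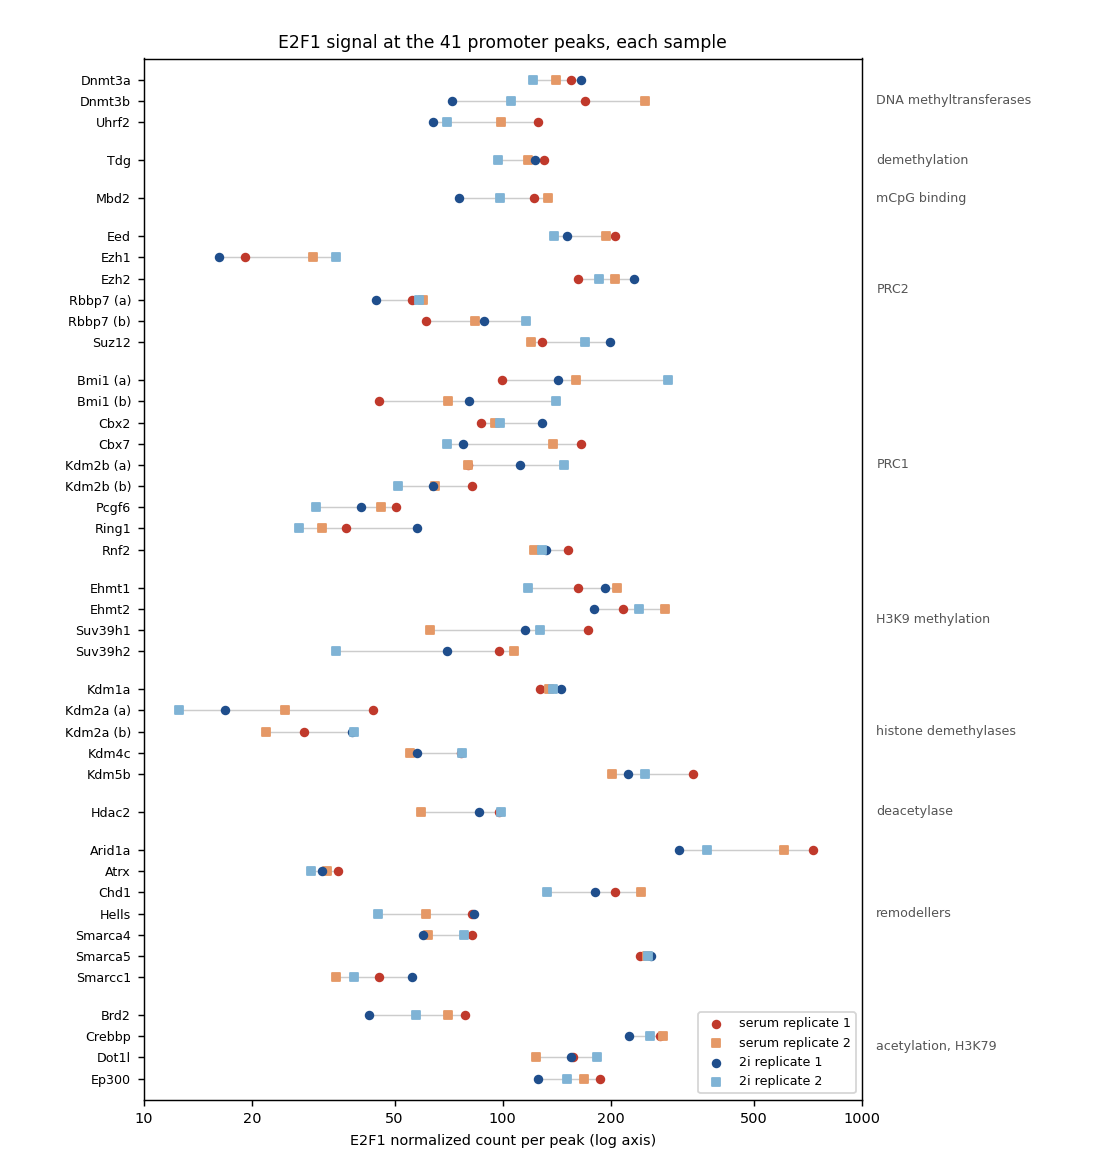
Normalized count (log axis) of each of the 41 promoter peaks in the 2 serum and 2 2i samples, 1 row per peak, grouped by role, with a line from the lowest to the highest sample. A point can hide another of like value. The serum and 2i symbols separate at Dnmt3b, Cbx7 and Arid1a, lie close together at Smarca5, Kdm1a and Rnf2, and the peaks of Ezh1 and Kdm2a are at the low end.

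At the 4 genes with 2 peaks, the ratio between the peaks was compared within each sample, which removes the scaling of the samples. Kdm2a showed the largest difference, with a log2 ratio of peak a to peak b of 0.63 and 0.17 in the serum samples and -1.13 and -1.55 in the 2i samples. The downstream peak was thus the stronger one in serum and the weaker one in 2i. For Kdm2b the ratios were -0.03 and 0.30 in serum and 0.80 and 1.52 in 2i, and for Rbbp7 -0.13 and -0.48 in serum and -0.98 and -0.97 in 2i. For Bmi1 they were 1.12 and 1.17 in serum and 0.81 and 1.03 in 2i, a difference of 0.22, so its 2 peaks moved nearly together. These differences were not tested.

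**Figure D4:**
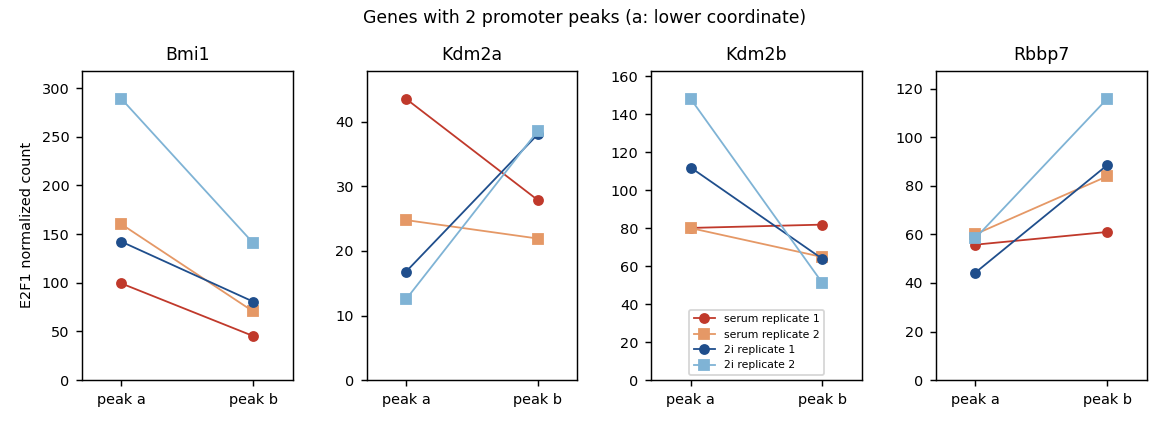
Normalized count at peak a (lower coordinate) and peak b of the 4 genes with 2 promoter peaks, with a line per sample and axes that start at 0. The lines of serum and 2i cross at Kdm2a, where peak a is higher in serum (43.6 and 24.8 against 16.8 and 12.5) and peak b in 2i, and run the same way at Bmi1.

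Most peaks lay across or just downstream of a start. The peak centre was within 250 bp of the nearest start of the gene at 32 of the 41 peaks, downstream of it at 27 and upstream at 14. The median distance regardless of side was 136 bp, against 92 bp for the other promoter peaks. By the annotation the centre lay in a UTR at 18 peaks, in an intron at 11, in coding sequence at 8 and upstream of the gene at 4. Relative to the nearest start, the peak of Brd2 was centred the farthest upstream (offset -811) and the downstream peak of Kdm2a the farthest downstream, at 346 bp. The Brd2 centre still lay in a UTR of Brd2, within another of its transcripts. Starts on both strands were under 4 of the 41 peaks (9.76%) and under 649 of the other promoter peaks (16.0%). The window of 6 peaks also held a start of another gene, and at these the signal cannot be told apart between the genes.

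**Figure D5:**
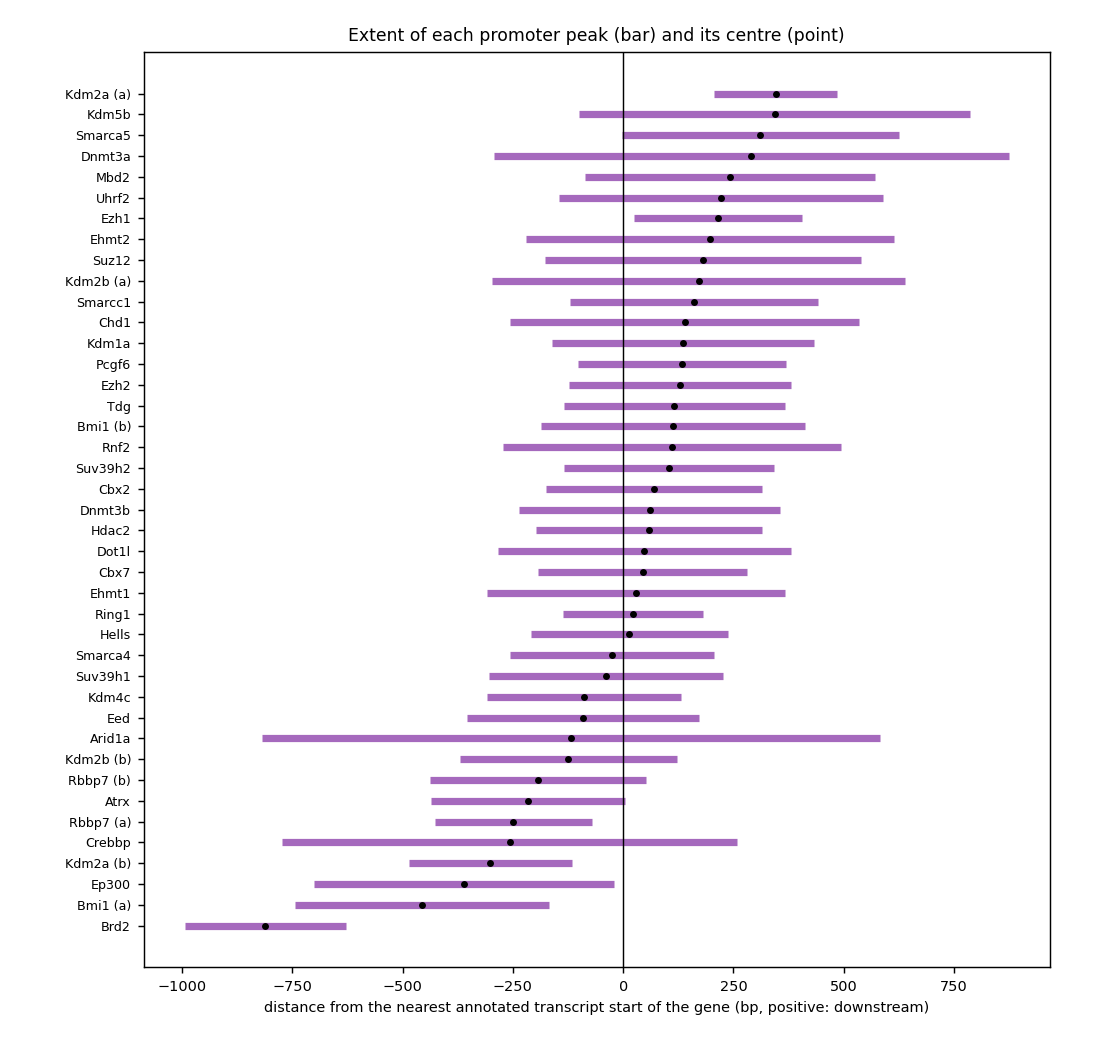
Extent (bar) and centre (point) of each of the 41 promoter peaks relative to the nearest annotated start of its gene, in bp, with positive values downstream along the gene. Centres of 27 peaks are downstream of that start and 14 upstream, from -811 bp at Brd2 to 346 bp at Kdm2a peak a. A centre upstream of the nearest start can lie within another transcript of the gene, as at Brd2.

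Of 98 promoter peaks in the wider list of chromatin genes, 7 were called (7.14%, against 9.48% of the other promoter peaks), 5 toward serum and 2 toward 2i. Phc1, a PRC1 subunit, had 903 and 2019.8 in serum and 357 and 306 in 2i, and its log2 fold change was 2.03 (limma adjusted p = 0.0308). For Jarid2, a PRC2 cofactor, it was 1.01 (limma adjusted p = 0.0786). Setd1b, an H3K4 methyltransferase, was the other of the 2 peaks that passed the adjustment, at 1.38 (limma adjusted p = 0.0347). At over 2-fold, 57 of the 4049 promoter peaks outside the 41 passed it, and 1.46% of all peaks did. The median log2 fold change of the 98 peaks was 0.13, close to the 0.14 of the 41.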

How the data were processed

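The 4 ChIP-seq samples (2 serum, 2 2i) were analysed. Per the study methods, alignment of paired-end reads was with BWA (mm9), peaks came from macs2 sample by sample, replicates were intersected, conditions merged and reads counted with bedtools, after duplicates and blacklisted regions had been removed. What the authors deposited is a signal: for every peak, reads over 1 size factor per sample, apart from 9 serum values of exactly 2. Coordinates are printed as deposited, and whether starts count from 0 or 1 is not stated. All 4523 peaks were fitted with limma 3.58.1 (R 4.3.3) on log2(normalized count + 1), eBayes with a trend, no block; called means an absolute log2 fold change over 1 and an unadjusted p under 0.05. The script was tested on simulated data. Promoters and sequences came from NCBIM37 (mm9) and GENCODE M1. Peaks with values in every sample are the called ones, the 4 highest and 4 lowest fold changes, the 4 highest and 3 lowest means, and the DNA methylation and PRC2 core genes. Some further values were chosen after they were seen. The genes and lists were chosen with earlier results of these data known. No input library was used here.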

Additional observations from a re-analysis of the deposited data

How the results depend on the processing

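The alternatives tried were other pseudocounts (0.1, 8), a filter on mean signal (50), equal totals, median-of-ratios scaling, cyclic loess, a replicate block, no eBayes trend, each sample left out, and other promoter windows. edgeR and DESeq2 on recovered reads were not run. Of all peaks 466 were called, 188 with a minimum mean of 50 (which leaves 34 of the 41 peaks) and 378 to 674 with a sample left out. The share of these calls that was higher in serum was 46.8%, 36.3% after rescaling to the same total, 58.3% after cyclic loess, 64.4% with the minimum mean, and 42.0% to 62.7% with a sample left out. After adjustment 66 passed, 271 with the replicate block, 0 without the trend (479 unadjusted) and 0 to 33 with a sample left out. No source used here says whether same-numbered samples are paired. The correlation of their deviations was 0.048 across peaks, which cannot settle this because a pairing could act at some peaks only. The replicate block left the 4 calls among the 41 in place. With a pseudocount of 8 and after rescaling to the same total, 1 of the 41 peaks was called, Dnmt3b, and with a sample left out 2 to 5, of which 2 to 3 were higher in serum. The cause was not tested.

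The median log2 fold change of the other promoter peaks was 0.0287 with a minimum mean of 50 and -0.137 after rescaling to the same total, where that of the 41 was 0.0532. With a sample left out the median of the 41 ran from -0.0031 to 0.1974 and that of the others from -0.0423 to -0.0263. Directions turned at small values: with a pseudocount of 8, Ezh1 (-0.0057); after rescaling to the same total, Smarca4 (-0.0328), Rnf2 (-0.0275), Ezh1 (-0.0799) and Dnmt3a (-0.0253); after cyclic loess, Rnf2 (-0.0036), Kdm5b (-0.0420) and Dnmt3a (-0.0101). With a sample left out, ranges that crossed 0 were Dnmt3a -0.158 to 0.287, Ehmt1 -0.0652 to 0.634, Ezh1 -0.513 to 0.526, Hdac2 -0.632 to 0.0818, Hells -0.236 to 0.645, Kdm4c -0.267 to 0.197, Kdm5b -0.230 to 0.517, Rbbp7 peak a -0.0135 to 0.380, Ring1 -0.748 to 0.313, Rnf2 -0.0930 to 0.218, Smarca4 -0.142 to 0.255, Smarcc1 -0.495 to 0.0303 and Suv39h1 -0.935 to 0.506. Per kb of peak, the ratio of the median signal to that of the other promoter peaks was 1.36 in place of 1.65. The fewest inferred reads behind a value of the 41 peaks were 11 (Ezh1, serum replicate 1) and 12 (Kdm2a peak a, 2i replicate 2).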
